A study of Mus musculus with 4 samples.

Results

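Heat shock proteins and chaperones are the genes described here: 38 named genes, of which 36 had a row among the 34615 gene rows of each library and all 36 passed the low-count filter. Hspa14 and Cct4 were not analysed here. The members were a fixed list of gene symbols, sorted by where the protein works and, for most of the cytosol, into inducible and constitutive genes. That split was assigned and not measured in these data. It gave 11 inducible cytosolic chaperones and 9 constitutive cytosolic chaperones and co-chaperones. The other classes held 6 genes of the endoplasmic reticulum, 3 of mitochondria, 5 subunits of the cytosolic chaperonin and 2 heat shock factors.

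RNA was sequenced from mammary basal cells of mice, which form the outer layer of the ducts and include the contractile myoepithelial cells. Cells with the genotype WT;RosamTmG/mTmG (WT) and cells with miR-205fl/fl;RosamTmG/mTmG (KO) both received Cre by adenovirus (Ad-cre) and were put into 3-week-old SCID-Beige mice, hosts without working T and B cells and with impaired natural killer cells. The outgrowths were collected after 8 weeks and pooled, 40 in number, and GFP+ CD24+CD49fhigh cells were sorted, so that both groups carried the reporter, had seen Cre and were selected for the recombined reporter, which does not itself report the miR-205 alleles. There were 2 WT and 2 KO libraries. Nothing states that the libraries of a genotype came from separate pools, so the spread between them, and every p-value, may be technical.

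Chaperones bind unfolded or partly folded proteins and use cycles of ATP binding, co-chaperones or enclosure to let them fold. In the cytosol, misfolded proteins release heat shock factor 1 from HSP70 and HSP90, and the factor binds heat shock elements to raise the inducible genes. The endoplasmic reticulum and mitochondria hold their own HSP70, HSP90 or HSP60 relatives, and the unfolded protein response raises the endoplasmic reticulum set. Chaperone genes are also known to respond when tissue is taken apart and sorted.

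Promoter elements differ between the classes, and some are shown here because the inducible and endoplasmic reticulum genes are set against each other below. Sequences are from RefSeq promoter entries of GRCm38.p6, 5′ to 3′ on the strand of the gene, and 29 of the 36 members had an entry (not Hsp90aa1, Hsp90ab1, Hspa8, Hspa9, Hspa13, Cryab or Hsf1). Capitals mark the heat shock element core, searched as GAANNTTC or TTCNNGAA, which read the same on both strands and can overlap, in Hspa1a, Hspb1, Dnaja1 and Hspe1. In Hspa5, Hsp90b1 and Dnajc3 they mark the endoplasmic reticulum stress response element, searched as CCAAT and CCACG with any 9 bases between them, on both strands. Hspa1a lies at chr17:34972157-34972406 (minus strand), Hspb1 at chr5:135887769-135887856 (plus), Dnaja1 at chr4:40722333-40722362 (plus), Hspe1 at chr1:55088053-55088082 (plus), Hspa5 at chr2:34772019-34772048 (plus), Hsp90b1 at chr10:86705525-86705676 (minus) and Dnajc3 at chr14:118937802-118937861 (plus). All 7 windows lie before the annotated RefSeq start, and those of Dnaja1, Hspe1 and Hspa5 also overlap an exon annotated in GENCODE M21.
Hspa1a: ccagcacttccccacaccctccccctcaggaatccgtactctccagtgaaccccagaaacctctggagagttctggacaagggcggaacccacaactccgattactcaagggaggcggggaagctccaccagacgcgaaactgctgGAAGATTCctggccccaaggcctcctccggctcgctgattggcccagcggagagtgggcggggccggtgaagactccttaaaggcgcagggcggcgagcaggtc
Hspb1: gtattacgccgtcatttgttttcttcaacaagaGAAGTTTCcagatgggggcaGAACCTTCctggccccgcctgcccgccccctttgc
Dnaja1: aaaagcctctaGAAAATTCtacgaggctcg
Hspe1: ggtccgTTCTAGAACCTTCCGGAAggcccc
Hspa5: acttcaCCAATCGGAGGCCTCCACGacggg
Hsp90b1: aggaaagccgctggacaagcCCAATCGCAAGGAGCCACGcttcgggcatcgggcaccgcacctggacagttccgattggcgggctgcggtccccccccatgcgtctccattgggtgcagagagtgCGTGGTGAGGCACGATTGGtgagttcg
Dnajc3: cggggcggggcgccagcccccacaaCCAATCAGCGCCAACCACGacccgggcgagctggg

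A heat shock element core was found within 250 bases before to 50 bases after an annotated start in 8 of the 9 inducible genes with an entry (not in Dnajb1), in 2 of 7 constitutive cytosolic genes, in both Hspd1 and Hspe1, in 2 of 5 chaperonin genes and in 0 of 5 endoplasmic reticulum genes. Over all genes with an entry, 16.97% held this core. In Hspe1 3 cores overlap in one run, and the same run lies in the window of Hspd1, the neighbour transcribed the other way. The endoplasmic reticulum stress response element was found in 3 of 5 endoplasmic reticulum genes and 0 of the other 24 members with an entry, against 0.14% of all genes. Hspa1a and its neighbouring copy Hspa1b had 98.8% identical bases over the 250 before the start, differing by 3 substitutions (C44T, T47C and T249G, Hspa1a base first, counted from 1 at the 5′ end of the window printed).

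The deleted microRNA is encoded at chr1:193507503-193507524 (minus strand, GRCm38.p6). It pairs with messages through its seed, bases 2 to 8, in capitals here because chaperone messages were searched for matches to it. Shorter matches, and parts of the messages outside the region named below, were not searched.
miR-205-5p: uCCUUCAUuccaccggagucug
Matches to the seed, ATGAAGG in DNA letters and on the transcribed strand, with an A after it in the longer form, were found in the longest GENCODE M21 3′ untranslated region of 2 of 36 members, Hspa13 and Dnajc3, and in 11.21% of all 18168 protein-coding genes with such a region.
Hspa13: atgttaaaaccATGAAGGAaattgtc
Dnajc3: tggcatgtgccATGAAGGcggcaagc
Both encode endoplasmic reticulum proteins, an HSP70 relative and a co-chaperone of BiP. Levels are given as CPM, counts scaled to library size with TMM factors. Hspa13 read 94.4 and 95.8 CPM in the WT pair and 103.6 and 76.3 in the KO pair, so that 1 KO library lay above and 1 below both WT libraries (log2 fold change of KO over WT -0.08 ± 0.28, SE). Dnajc3 read 156.7 and 164.2 CPM in the WT pair and 159.6 and 187.1 in the KO pair, with overlapping groups and a log2 fold change of 0.11 ± 0.22. In neither gene did the KO libraries part from the WT libraries.

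Total gene counts ran from 47953972 to 60030932 per library. KO replicate 2 stood apart: 12679 genes had a count there, against 18027 to 18897 in the other 3 libraries. The sorted cells carried basal markers at a summed 10520 to 12900 CPM in every library, with 10 of 11 markers measured and none at 0. Single markers did not keep step with the sum. Acta2, Myh11, Mylk, Cnn1 and Col17a1 were lowest in KO replicate 2, while Trp63, Oxtr, Itga6 and Lgr5 were highest there. Krt5 was highest in KO replicate 1. Mir205 itself had 0 counts in all 4 libraries, which allows up to 0.0626 CPM in the shallowest (counting error only) and gives no check of the labels. Every member was well covered, with 425 counts or more in each library, and none was at 0 in KO replicate 2.

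Per kilobase of annotated exon, the constitutive and inducible cytosolic HSP90 genes and the constitutive HSP70 led. Hsp90ab1, the constitutive cytosolic HSP90, had a mean level of 735 CPM per kilobase over the 4 libraries, and Hsp90aa1, its inducible partner, had 480. Hspa8, the constitutive HSP70 called HSC70, had 366 CPM per kilobase, and Hspa5, which encodes BiP of the endoplasmic reticulum, had 282. Hspd1, mitochondrial HSP60, had 224 and Hspb1, the small heat shock protein HSP25, had 204. Hspa1a and Hspa1b, the stress HSP70 genes, had 21.2 and 23.2, and Hsf1 and Hsf2 had 9.73 and 4.43, near the low end. Hspa8 stood above Hspa1a and Hspa1b per kilobase in every library, and Hspa1a and Hspa1b together held 4.53% and 6.17% of the counts of Hspa1a, Hspa1b, Hspa2 and Hspa8 in WT.

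**Figure D1:**
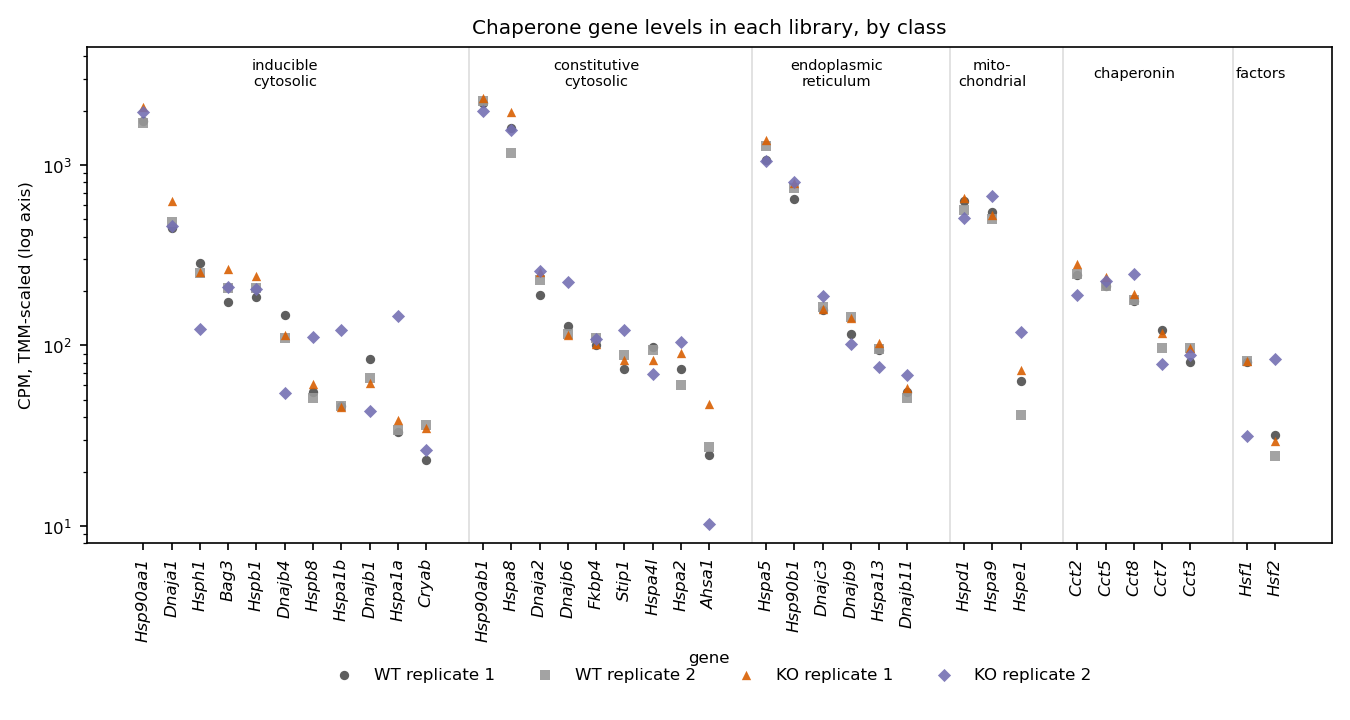
Level of each of 36 chaperone genes (x axis, grouped by class, ordered by mean) in CPM scaled by TMM (y axis, log), 1 point per library. In most genes the 4 libraries lie close together. KO replicate 2 stands off in Hspa1a, Hspa1b, Hsph1, Dnajb4, Hspb8, Dnajb6, Ahsa1, Hspe1, Hsf1 and Hsf2.

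The main comparison asked whether chaperone genes differ between basal cells of the 2 genotypes. In the quasi-likelihood test of edgeR, 0 of 36 members passed an adjusted p of 0.05 (Benjamini-Hochberg) in either direction, and 0% of the 15364 genes tested passed. The smallest adjusted p of a member was 0.9989 in that edgeR test. An unadjusted p below 0.05 was given to 0 members and to 0.957% of all genes. DESeq2 called 0 members and 0.026% of genes, and gave 1 member, Hspa1a, and 3.53% of genes an unadjusted p below 0.05. With limma voom 0 members were called, and 0 members and 0.918% of genes had such an unadjusted p. A fold change was positive in 25 of 36 members, against 42.8% of all genes. Of the 5727 tested genes at a mean of 20 CPM or more, a limit set after the members' levels were seen, 59.3% were positive. With upper quartile or total-count scaling 20 of 36 members were positive. The shares over all genes under those scalings are not given here. The median log2 fold change of the members was 0.16, against -0.14 for all genes and 0.11 for those at 20 CPM or more. Total-count scaling lowered the median of all genes to -0.24 and that of the members to 0.06.

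The groups did not overlap in 13 of 36 members, against 32.4% of all genes. Both KO libraries lay above both WT libraries in 11 of 36 members, against 13.2% of all genes and 21.5% of those at 20 CPM or more. Both lay below in 2 members, against 19.2% of all genes and 12.6% of those at 20 CPM or more. DESeq2 size factors added Hsph1 and Hsf1, which made 4 members, against 19.6% of all genes. The share of all genes with both KO libraries above WT was 10.6% to 13.2% over 4 scalings. Under each of these scalings 6 of the 11 stayed above (Hspa1a, Hspb8, Hspa2, Dnajb11, Hspe1 and Cct8). The other 5 (Hsp90aa1, Bag3, Dnaja2, Hsp90b1 and Cct5) overlapped with upper quartile or total-count scaling, and both of the lower genes, Dnajb1 and Hspa4l, stayed below. With 2 libraries a group an exact permutation test of any single gene cannot go below a p of 0.33.

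Inducible cytosolic chaperones, the classical heat shock genes, lay on both sides of WT. The stress HSP70 genes were high in a single KO library. Hspa1a read 33.2 and 34.0 CPM in the WT pair, against 38.8 for KO replicate 1 and 145.7 for KO replicate 2. Hspa1b read 46.4 and 46.4 CPM in the WT pair, against 45.4 for KO replicate 1 and 122.1 for KO replicate 2. KO replicate 1 thus lay close to WT in both genes, and KO replicate 2 lay 4.34-fold and 2.63-fold above the WT mean. The log2 fold changes were 1.46 ± 0.67 and 0.85 ± 0.53, and without KO replicate 2 they were 0.21 ± 0.30 and -0.03 ± 0.27. Their share of the 4 HSP70 genes named above was 3.94% in KO replicate 1 (95% Wilson interval 3.83% to 4.04%) and 13.8% in KO replicate 2 (13.6% to 14.1%), intervals that cover counting error only. The 2 genes cannot be fully told apart, since 58.8% of the 50-base windows of the longest Hspa1a transcript occur unchanged in Hspa1b, and 19% of the Hspa1a exon bases overlap Gm20481 on the opposite strand.

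Some co-chaperones of HSP70 stood on the other side in the same library. Hsph1, the HSP110 nucleotide exchange factor, read 287.4 and 253.3 CPM in the WT pair, against 255 for KO replicate 1 and 123.6 for KO replicate 2. Dnajb4, a J protein that brings substrates to HSP70, read 147.9 and 109.6 CPM in the WT pair, against 114.7 for KO replicate 1 and 54.4 for KO replicate 2. In both genes KO replicate 1 lay between the WT libraries and KO replicate 2 lay below them. Dnajb1, the main stress-induced J protein, read 83.7 and 66.2 CPM in the WT pair and 62.0 and 43.1 in the KO pair, with both KO libraries below WT and a log2 fold change of -0.51 ± 0.35. Hspa1a and Hspb8 were thus above WT and Dnajb1 below it in both KO libraries, within 1 class of stress-induced genes and with no member past the test.

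The remaining inducible genes lay near WT or modestly above it. Hsp90aa1 read 1758 and 1716 CPM in the WT pair and 2100 and 1968 in the KO pair, which do not overlap, with a log2 fold change of 0.23 ± 0.16. Bag3, a co-chaperone that links HSP70 to autophagy and to the small heat shock proteins, read 173 and 207.2 CPM in the WT pair and 264.9 and 209.3 in the KO pair (0.32 ± 0.24), the second KO library being level with the second WT library. Hspb8, the small heat shock protein that binds BAG3, read 55.0 and 51.2 CPM in the WT pair and 60.97 and 111.5 in the KO pair (0.70 ± 0.39). Hspb8 was therefore above WT in both KO libraries, most of it in KO replicate 2. Dnaja1, a J protein of the cytosol, read 449.4 and 484.9 CPM in the WT pair and 634.7 and 461.2 in the KO pair, and here KO replicate 1 was the high library. Hspb1 (log2 fold change 0.19 ± 0.22) and Cryab, a small heat shock protein of contractile cells (0.05 ± 0.47), had overlapping groups. Cryab shares 17% of its exon bases with Hspb2 on the opposite strand.

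**Figure D2:**
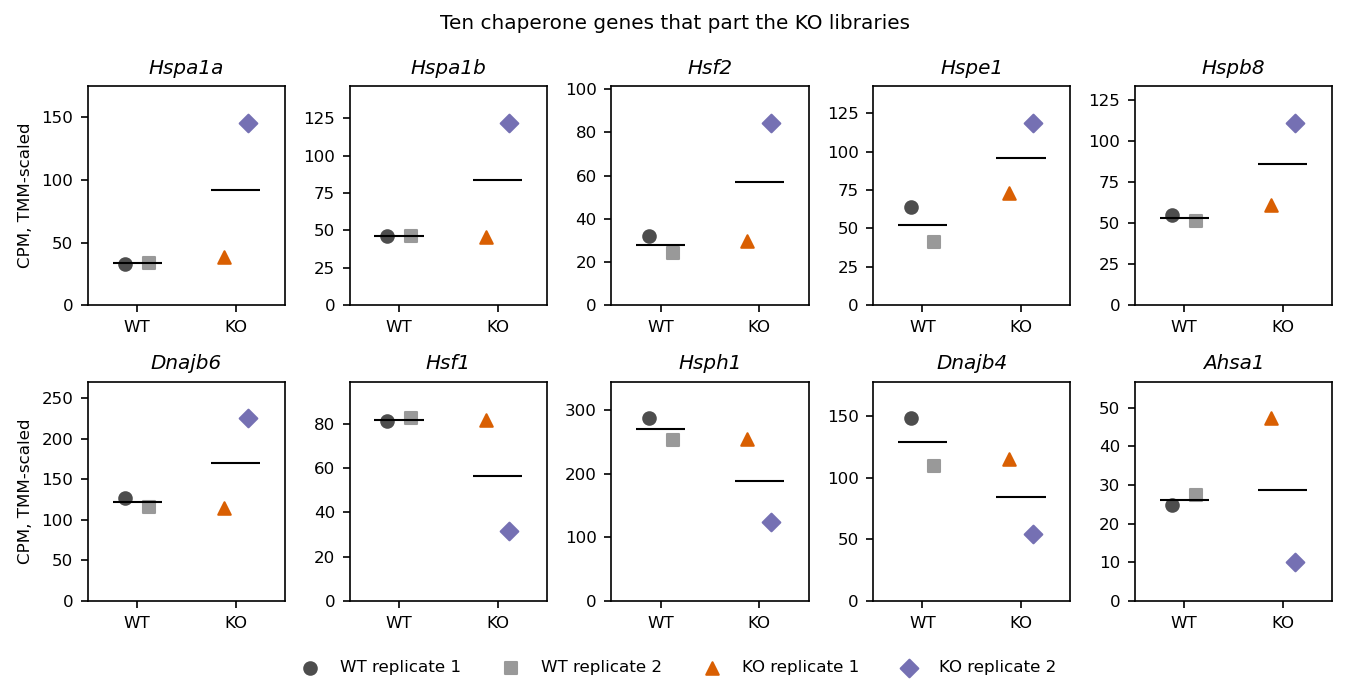
Level of 10 chaperone genes in CPM scaled by TMM (y axis, from 0) in the WT and KO libraries (x axis). Each library is 1 point, and the group mean is a line. These are the genes that stood out with KO replicate 2 as the lone KO library, so its extreme place in them is no separate result. KO replicate 2 is the highest library in Hspa1a, Hspa1b, Hsf2, Hspe1, Hspb8 and Dnajb6 and the lowest in Hsf1, Hsph1, Dnajb4 and Ahsa1, while KO replicate 1 lies within 0.21 log2 units of the WT mean in 8 of the 10 and further above it in Hspe1 and Ahsa1.

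The heat shock factors themselves parted KO replicate 2 from the rest. Hsf1, the master regulator of the heat shock response, read 81.0 and 82.4 CPM in the WT pair, against 81.6 for KO replicate 1 and 31.4 for KO replicate 2. Hsf2, its relative active in development and proteasome stress, read 31.8 and 24.3 CPM in the WT pair, against 29.7 for KO replicate 1 and 84.5 for KO replicate 2. The counts of Hsf1 over those of Hsf2 were 2.54 and 3.39 for the WT pair, 2.75 for KO replicate 1 and 0.371 for KO replicate 2. KO replicate 2 thus lay below the other 3 libraries in this ratio. The log2 fold changes were -0.53 ± 0.51 for Hsf1 and 1.02 ± 0.60 for Hsf2, and without KO replicate 2 they were 0.00 ± 0.22 and 0.08 ± 0.35. Hsbp1, which encodes a small protein that binds HSF1, read 70.9 and 56.9 CPM in the WT pair and 81.5 and 203 in the KO pair (1.15 ± 0.49).

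Among constitutive cytosolic chaperones, the groups did not overlap in Hspa2 and Dnaja2, which were above WT, and in Hspa4l, which was below it. Hsp90ab1 read 2210 and 2248 CPM in the WT pair and 2357 and 1997 in the KO pair, a log2 fold change of -0.03 ± 0.18. Hspa8 read 1603 and 1163 CPM in the WT pair and 1963 and 1566 in the KO pair (0.35 ± 0.24), with the first WT library inside the KO range. Hspa2, an HSP70 relative first known from testis, read 73.7 and 60.0 CPM in the WT pair and 91.1 and 104.1 in the KO pair. Its groups did not overlap, and its log2 fold change was 0.55 ± 0.28. Hspa4l, an HSP110 relative, read 98.3 and 93.8 CPM in the WT pair and 82.5 and 69.6 in the KO pair (-0.34 ± 0.27), the other gene with both KO libraries below WT.

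Among the constitutive co-chaperones, the J protein Dnaja2 read 190.4 and 231.1 CPM in the WT pair and 253.6 and 259.1 in the KO pair (0.28 ± 0.21). Dnajb6, a J protein that holds back aggregation, read 127.5 and 115.5 CPM in the WT pair, against 114.6 for KO replicate 1 and 225.1 for KO replicate 2. Ahsa1, the activator of the HSP90 ATPase, read 24.9 and 27.5 CPM in the WT pair, against 47.2 for KO replicate 1 and 10.2 for KO replicate 2. In Ahsa1 the KO libraries stood on opposite sides of WT, and its SE of 0.79 was the widest of any member. Stip1, the adaptor between HSP70 and HSP90, had a log2 fold change of 0.33 ± 0.31, and Fkbp4, an immunophilin of steroid receptor complexes, had 0.00 ± 0.24. Ptges3, the HSP90 co-chaperone p23 and not a member, read 249.6 and 233.3 CPM in the WT pair and 330.8 and 329 in the KO pair (0.45 ± 0.19), above WT in both KO libraries.

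Endoplasmic reticulum chaperones had the narrowest range of fold changes of the 3 classes with 6 or more members, from -0.09 to 0.26. Hspa5 read 1069 and 1275 CPM in the WT pair and 1376 and 1051 in the KO pair, with 1 KO library on each side of WT. Hsp90b1, the HSP90 of this compartment called GRP94, read 649.1 and 746.6 CPM in the WT pair and 795.8 and 806.7 in the KO pair (0.20 ± 0.18). Dnajb11, a BiP co-chaperone, read 55.1 and 50.9 CPM in the WT pair and 58.3 and 68.3 in the KO pair (0.26 ± 0.31). Dnajb9, a BiP co-chaperone of the unfolded protein response, had a log2 fold change of -0.09 ± 0.29. The 3 genes with a stress response element in their printed promoters, Hspa5, Hsp90b1 and Dnajc3, had log2 fold changes of 0.05, 0.20 and 0.11. Hspa5 and Dnajc3 turned to -0.06 and -0.03 with total-count scaling.

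Mitochondrial chaperones included a neighbouring gene pair whose members did not keep step. Hspe1, the HSP10 lid of the mitochondrial chaperonin, read 63.8 and 40.9 CPM in the WT pair and 73.0 and 119 in the KO pair, above WT in both KO libraries (0.88 ± 0.41). Hspd1, the HSP60 barrel, read 633.6 and 562.8 CPM in the WT pair and 657.4 and 510.3 in the KO pair (-0.04 ± 0.21). The 2 genes lie head to head, and the overlapping heat shock element cores printed for Hspe1 lie in the promoter windows of both. Hspe1 over Hspd1 per exon base was 0.180 and 0.130 for the WT pair, 0.199 for KO replicate 1 and 0.418 for KO replicate 2. The genes share 112 exon bases on opposite strands, and Hspe1 has processed copies elsewhere in the genome, 5 of which were measured with from 0 to 53 counts a library. Hspa9, mitochondrial HSP70 or mortalin, read 548.9 and 500.8 CPM in the WT pair and 530.3 and 674.8 in the KO pair (0.20 ± 0.21).

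The 5 measured subunits of the cytosolic chaperonin, the ring that folds actin and tubulin, are built into 1 complex. Cct5 read 213.2 and 212.4 CPM in the WT pair and 238.8 and 228.1 in the KO pair (0.13 ± 0.20). Cct8 read 176 and 179 CPM in the WT pair and 193.1 and 247.5 in the KO pair (0.31 ± 0.23). Both genes had KO above WT without overlap, though Cct5 overlapped with upper quartile or total-count scaling. Cct2, Cct3 and Cct7 had log2 fold changes of -0.07 ± 0.26, 0.06 ± 0.26 and -0.16 ± 0.32. In KO replicate 2 Cct2 and Cct7 lay below both WT libraries and Cct8 above them, so the subunits went apart in that library, while in KO replicate 1 all 5 lay 0.10 to 0.18 above the WT mean on the log2 scale.

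By class, the median log2 fold change was 0.23 for inducible cytosolic, 0.28 for constitutive cytosolic, 0.08 for endoplasmic reticulum, 0.20 for mitochondrial and 0.06 for chaperonin genes. The endoplasmic reticulum and chaperonin medians turned to -0.04 and -0.06 with total-count scaling. Summed over its genes, the inducible class held 3242 and 3212 CPM in the WT pair and 3852 and 3471 in the KO pair. The constitutive cytosolic class held 4501 and 4138 CPM in the WT pair and 5095 and 4461 in the KO pair. The summed counts of inducible over constitutive cytosolic genes, which need no scaling, were 0.720 and 0.776 in WT and 0.756 and 0.778 in KO. This ratio lay inside the WT range in KO replicate 1 and just above it in KO replicate 2. It weighs abundant genes most, such as Hsp90aa1 with 99123 of 182788 inducible counts in WT replicate 1. Hsp90aa1 over Hsp90ab1 counts were 0.796 and 0.763 in WT and 0.891 and 0.985 in KO. The Hspa1a and Hspa1b share of the HSP70 genes named earlier lay below WT in KO replicate 1 and above it in KO replicate 2. All 36 members together took 1.28% and 1.23% of gene counts for the WT pair, 1.45% for KO replicate 1 and 1.09% for KO replicate 2. On unscaled counts the KO libraries thus lay on either side of WT.

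**Figure D3:**
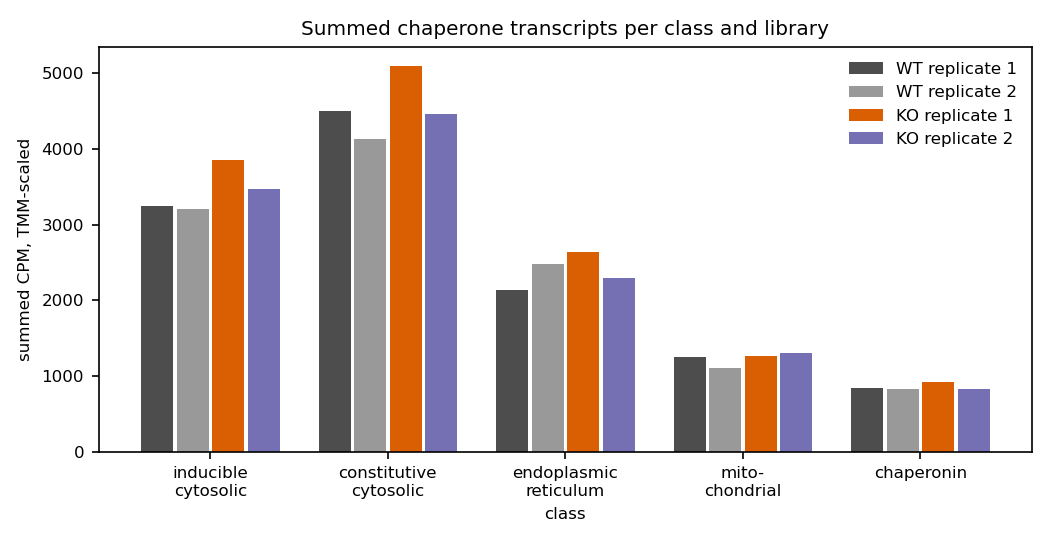
Summed CPM scaled by TMM (y axis, from 0) of 5 chaperone classes (x axis) in the 4 libraries, 1 bar per library. KO replicate 1 is the highest library in the inducible, constitutive, endoplasmic reticulum and chaperonin classes, at 3852, 5095, 2635 and 926.5 CPM.

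The KO libraries differed from each other more than the WT libraries did. The median absolute log2 ratio between replicates was 0.16 in WT and 0.40 in KO for the members, against 0.41 and 1.40 for all genes and 0.20 and 0.60 for those at 20 CPM or more. Across members, which are not independent, the Pearson correlation of log2 CPM was 0.988 between the WT libraries, 0.987 and 0.990 between KO replicate 1 and each WT library, and 0.890 to 0.897 between KO replicate 2 and each of the others (36 genes, a description). KO replicate 1 lay above both WT libraries in 20 of 36 members and below them in 4, against 31.4% and 30.9% of all genes and 36% and 30.1% of those at 20 CPM or more. KO replicate 2 lay above in 17 and below in 13, against 34.2% and 54.9% of all genes and 53.2% and 36% of those at 20 CPM or more. The members of KO replicate 1 were therefore mostly a little above WT, with a median log2 ratio to the WT mean of 0.13, and those of KO replicate 2 were spread to both sides.

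With KO replicate 2 as the lone KO library, edgeR called 10 of 36 members (6 higher and 4 lower), against 34.9% of all genes (12.4% higher and 22.5% lower), a share above that of the members. Those 10 were Hspa1a, Hspa1b, Hspb8, Dnajb6, Hspe1 and Hsf2 on the higher side and Hsph1, Dnajb4, Ahsa1 and Hsf1 on the lower side, with adjusted p-values from 0.002621 to 0.03859 in that edgeR fit. With KO replicate 1 as the lone KO library, 0 members and 0% of all genes were called. At an unadjusted p under 0.05 in that edgeR fit were 5 members, all higher: Hsp90aa1, Dnaja1, Bag3, Hspa8 and Ahsa1, against 2.80% of all genes. The lists from the 2 KO libraries shared Ahsa1, which lay on opposite sides of WT in them. A lone library was assumed to vary like the WT libraries.

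**Figure D4:**
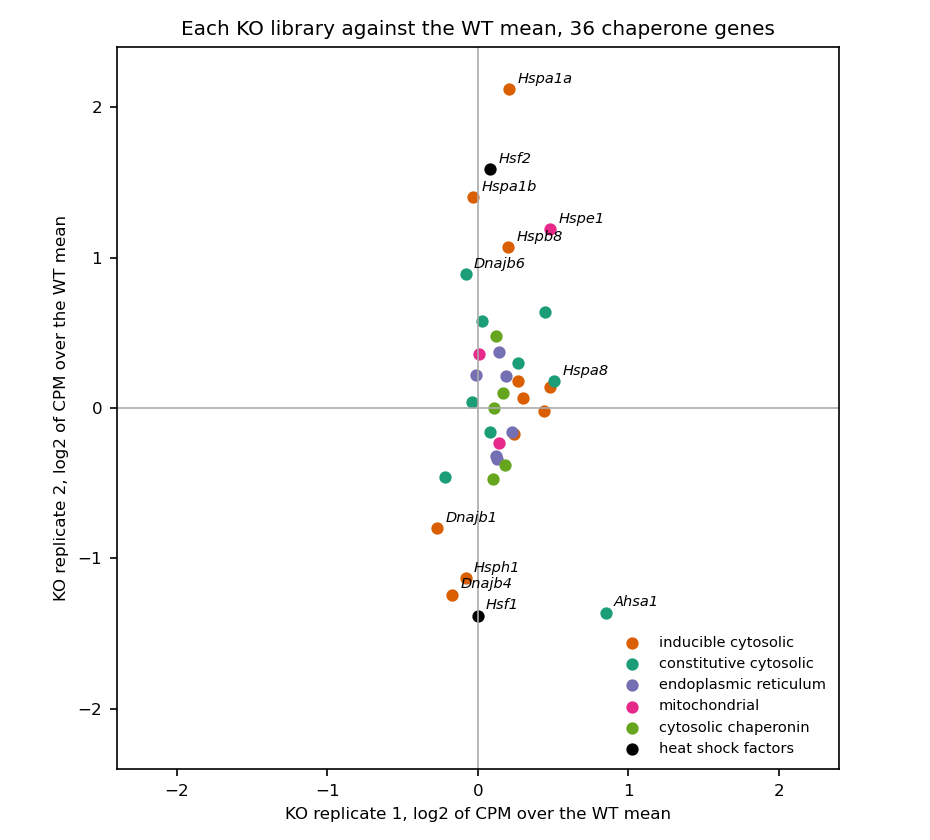
Log2 ratio of CPM to the WT mean in KO replicate 1 (x axis) and KO replicate 2 (y axis) for 36 chaperone genes, coloured by class. Points spread further along the y axis, from -1.38 for Hsf1 to 2.12 for Hspa1a, than along the x axis, from -0.27 for Dnajb1 to 0.85 for Ahsa1.

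Other measures moved with KO replicate 2. Immediate early genes, which respond to handling within minutes, summed to 7611 and 8429 CPM in the WT pair. The sums were 8581 for KO replicate 1 and 11230 for KO replicate 2. Of 22 tested, 6 lay above WT and 1 below it in both KO libraries. Over genes at 20 CPM or more the shares were 21.5% and 12.6%, and over all genes 13.2% and 19.2%. The list did not move as one. Fos, Fosb, Jun, Junb, Jund, Egr1, Atf3, Ier2, Ier5, Dusp1, Zfp36, Klf6 and Myc were highest in KO replicate 2. Fosb and Dusp1 read 1469 and 1703 CPM in that library. Fosl1 (34.3 CPM), Egr2 (56.1 CPM), Egr3, Ier3, Klf2, Klf4, Nr4a1 and Gadd45b were lowest there. Immune markers, 7 of 8 measured, summed to 65.5 and 145.8 CPM in the WT pair. Their sums were 96.5 for KO replicate 1 and 318.8 for KO replicate 2, with Cd74 the largest part in each library. Cd74, Ptprc and Cd3e were highest in KO replicate 2, while Lyz2, Cd79a and Itgam were lowest there. Lyz2 was highest in KO replicate 1. The macrophage marker Adgre1 was at 0 in KO replicate 2 but also in WT replicate 1, and had 1 count in WT replicate 2. Adipocyte markers, all 5 measured, summed to 25.9 and 40.8 CPM in the WT pair, against 41.2 for KO replicate 1 and 150.7 for KO replicate 2, with 138.7 of the last from Fabp4. Adipoq, Plin1 and Cidec were at 0 in KO replicate 2 and each in 2 other libraries as well. Luminal markers, 11 of 12 measured, summed to 543.3 and 892.6 CPM in the WT pair and 622.3 and 933.3 in the KO pair, with Elf5 at 0 in KO replicate 2. Of 11 tested, 0 lay above WT in both KO libraries and 4 lay below it: Elf5, Kit, Areg and Prom1. The shares over all genes are those given for the immediate early genes. Prlr, Foxa1 and Cldn3 were highest in KO replicate 2, at 210, 89.1 and 5.94 CPM. Fibroblast markers, 7 of 8 measured and none at 0, summed to 572.4 and 629.5 CPM in the WT pair and 679.3 and 917.4 in the KO pair. Endothelial markers, 6 of 7 measured, summed to 60.0 CPM in KO replicate 2 against 88.3 to 167 in the other libraries, with Cldn5 at 0 in KO replicate 2, and red blood cell markers, 2 of 4 measured, stayed at or below 1.65 CPM. The part of these, and of the low detection, in the chaperone values was not tested. In pooled sorted cells, more cells of a type and more RNA per cell cannot be told apart.

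A positive fold change was seen in 10 of 14 with a core and in 11 of 15 without one, with medians of 0.21 and 0.13. Both KO libraries lay above WT in 5 of 14 and in 5 of 15, and below it in 0 of 14 and in 2 of 15, against 13.2% above and 19.2% below over all genes and 21.5% and 12.6% at 20 CPM or more. In KO replicate 2 both sets spread to both sides of WT, with 7 above and 4 below of the 14 with a core and 8 above and 6 below of the 15 without one. Over all genes these shares were 34.2% and 54.9%, and 53.2% and 36% at 20 CPM or more. No difference between the sets was tested.

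Genes that work beside the members were read from 4 lists. Of 34 tested genes for other cytosolic chaperones and co-chaperones, 0 were called in either direction, 17 had a positive fold change, and the median was 0.00. Of 27 tested genes for the unfolded protein response and folding in the endoplasmic reticulum, 0 were called and 16 were positive (median 0.05). Serp1, which protects membrane proteins during stress, read 148.7 and 157.4 CPM in the WT pair and 196.8 and 219.8 in the KO pair. Hyou1, the HSP110 relative of this compartment and an exchange factor of BiP, read 158.1 and 148.6 CPM in the WT pair and 126.1 and 85.6 in the KO pair. Of 14 genes for mitochondrial folding and proteases, 0 were called and 9 were positive (median 0.39), the protease subunit gene Clpp reading 8.04 and 3.58 CPM in the WT pair and 10.3 and 34.0 in the KO pair. Of 25 proteasome subunit genes, 0 were called and 12 were positive (median -0.04), but KO replicate 1 lay above both WT libraries in 19 of the 25, against 31.4% of all genes and 36% of those at 20 CPM or more. Psmc4, an ATPase of the proteasome base, read 41.0 and 36.7 CPM in the WT pair and 57.9 and 68.6 in the KO pair. On the lower side, Bag4 of the cytosolic list read 14.1 and 11.76 CPM in the WT pair and 11.15 and 1.82 in the KO pair. Afg3l2 of the mitochondrial list read 114.9 and 90.9 CPM in WT and 104.7 and 57.5 in KO, with overlapping groups. Psmd2 of the proteasome list read 137.5 and 168.3 CPM in WT and 142.7 and 112 in KO, also with overlapping groups. The smallest adjusted p among the genes named from these lists was 0.9989 in the edgeR test.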

How the data were processed

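The deposited values are raw whole-number counts for each Ensembl gene in each library. Alignment and counting used TopHat2 (2.02) and HTSeq with the NCBIM37 (mm9) build, per the submitters' processing notes, which give no order. No annotation release, strand setting or overlap rule is given in the sources used here. Antisense or overlapping partners thus cannot be told apart. RNA was isolated with a PicoPure kit and libraries with NuGEN and Illumina protocols, per the labels' protocols. Reads outside any feature were 57.59% to 61.52% of counted lines and ambiguous reads 0.71% to 0.79%. These summary rows stayed out of library sizes and tests.

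Symbols, exon lengths and untranslated regions came from GENCODE M21 (GRCm38), matched on identifiers (30082 of 34615 rows), and promoters and the microRNA from RefSeq (GRCm38.p6). Those builds are later than that of the counts. KO and WT were compared with edgeR 4.0.16 in R 4.3.3 (filterByExpr, TMM, quasi-likelihood test, genotype as the term, Benjamini-Hochberg adjustment over 15364 genes). Log2 fold changes, KO over WT, come from that fit. Alternatives used DESeq2 1.42.0, limma 3.58.1, other scalings and filters, a replicate block and each library left out. The procedure was run on simulated data, with recovery of known changes required only at a low spread. The main fit had a biological coefficient of variation (spread between replicates) of 0.932, so that run does not show what could be called here. Tables used Python 3.11.15, pandas 2.3.3, numpy 2.4.6 and scipy 1.17.1. The members and lists were chosen with earlier results of these data known. All members could be named, and from the other lists up to 2 genes per direction with the smallest p at a mean of 5 CPM or more. The same replicate numbers are given to both genotypes without a stated link.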

Additional observations from a re-analysis of the deposited data

How the results depend on the processing

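No member was called with all 4 libraries under any scaling, filter, test or block tried, nor without WT replicate 1, WT replicate 2 or KO replicate 2. The count of 0 called members rose to 10 without KO replicate 1 (range over libraries left out, 0 to 10), and that of all genes ranged from 0 to 5724, with 4 by the DESeq2 Wald test. The calls made without KO replicate 1 rest on KO replicate 2, in which fewer genes were detected. The 25 members with a positive fold change ranged from 20 to 28 with a library left out. Members with both KO libraries above WT numbered 11, against 13.2% of all genes. They numbered 6 with upper quartile scaling (10.9% of all genes) and 6 with total-count scaling (10.6%). With a library left out they numbered 14 to 21, but fewer libraries must then part in every gene. The shares over all genes with a library left out are not given here. Members with both below numbered 2 (19.2% of all genes), and 4 with DESeq2 size factors (19.6%). They also numbered 4 with genes under a mean of 5 CPM left out and 4 to 13 with a library left out, with no such share given here. Every member had 425 counts or more in each library.

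With upper quartile scaling the class medians were 0.12 (inducible), 0.17 (constitutive), -0.03 (endoplasmic reticulum), -0.05 (chaperonin) and 0.08 (all members), and with total-count scaling 0.10, 0.16, -0.04, -0.06 and 0.06, with 0.05 for mitochondrial genes. The median of all members was 0.12 with genes under a mean of 5 CPM left out. Leaving out each library gave 0.06 to 0.29 (inducible), 0.08 to 0.21 (constitutive), 0.14 to 0.36 (mitochondrial), -0.01 to 0.13 (chaperonin) and 0.08 to 0.19 (all members).

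Several fold changes changed sign, most of them near 0 with all libraries (exceptions are Hspa1b at 0.85, Dnajb6 at 0.48 and Dnaja1 at 0.23), and the cause was not tested. With upper quartile scaling Cryab was at -0.05, Hspa5 at -0.05, Dnajc3 at -0.01 and Cct3 at -0.05, and with total-count scaling they were at -0.05, -0.06, -0.03 and -0.06. Ahsa1 was at -0.09 with limma voom. With libraries left out the ranges were -1.37 to 0.85 for Ahsa1, -0.38 to 0.19 for Cct2, -0.06 to 0.19 for Cct3, -0.48 to 0.10 for Cct7, -0.23 to 0.40 for Cryab, -0.02 to 0.45 for Dnaja1, -0.08 to 0.89 for Dnajb6 and -0.35 to 0.13 for Dnajb9. They were -0.01 to 0.22 for Dnajc3, -0.16 to 0.08 for Hsp90ab1, -0.32 to 0.13 for Hspa13, -0.03 to 1.39 for Hspa1b, -0.16 to 0.23 for Hspa5 and -0.23 to 0.14 for Hspd1.

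The correlation of the deviations of same-numbered libraries from their group means was 0.02 over all genes tested. The KO libraries differed widely from each other (median absolute log2 ratio 1.4, against 0.41 in WT). This value therefore cannot show whether the replicate numbers pair the libraries. With the replicate block 0 members and 0 genes were called, 24 members had a positive fold change and the fold change of Ahsa1 was -0.25.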
